A study of Mus musculus with 43 samples.

Results

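Loss of Foxl2 was examined in newborn mouse ovaries that already lacked most of their germ cells through the KitWv/Wv genotype. The comparison took 6 of the 43 arrays of the study: 3 ovaries with KitWv/Wv and Foxl2-/- (Kit Foxl2 double mutant) and 3 ovaries with KitWv/Wv and Foxl2+/- (Kit mutant), all collected at birth (P0). Both groups thus carried the same Kit genotype, and the Kit mutant ovaries kept 1 working copy of Foxl2. Each array held the amplified RNA of a whole gonad from 1 mouse of mixed C57BL/6J, NIH-Swiss/BC and CD1 background, and KitWv is a hypomorphic allele, which leaves some germ cells. For comparison, 3 Foxl2-/- and 3 wild-type ovaries at P0 gave the effect of Foxl2 loss with Kit intact, 3 Wnt4-/- Foxl2-/- and 3 Wnt4-/- ovaries (the second group Foxl2+/-) gave it without Wnt4, and 3 testes of Wnt4-null newborns served as a reference for levels.

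Foxl2 encodes a forkhead transcription factor of the supporting (granulosa) cells of the ovary, which surround the oocytes and nourish them. Kit is the receptor through which germ cells receive the survival signal Kit ligand from those somatic cells. The design therefore asks which responses to Foxl2 loss are found in somatic cells when few oocytes remain, and what happens to the genes of the residual germ cells. In RNA from whole gonads, fewer cells of a type and less RNA per cell cannot be told apart.

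Levels are given as multiples of the mean of all probe sets, which was the same on every array, so that a level of 1 is an average signal; the median probe set lay at 0.256. Differences are log2 fold changes of level plus 0.01, double mutant over Kit mutant, with their standard error (SE). A gene was called when its adjusted p from limma, over 18184 genes each read by its brightest probe set, was under 0.05; since levels under 0.01 add little to the sum, folds of very low genes are understated. Correlations between ovaries of a group were 0.95 to 0.965 in double mutants and 0.946 to 0.977 in Kit mutants, inside the range of 0.922 to 0.982 over all groups. Among these ovaries Kit mutant ovary 1 deviated most from its group, with a residual SD of 0.467 on the log2 scale, against 0.336 and 0.338 in the other Kit mutant ovaries. Double mutant ovaries 1 and 3 came near it, at 0.435 and 0.441, and ovary 2 was at 0.325. The median over the arrays of all other groups was 0.32. The supporting-cell gene Fst, encoding the activin antagonist follistatin, was at 3.08, 2.8 and 1.66 in double mutants and 2.81, 3.18 and 3.39 in Kit mutants. It does not stand for its lists, whose sums are given below. Of 23 germ-cell genes, 22 were lower in all 3 Kit mutants than in all 3 wild-type ovaries, as were 15.5% of all genes.

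Foxl2 itself was read by a pair of probe sets. The brighter gave 4.07, 3.61 and 7.75 in the double mutants, against 19.8, 33.1 and 23.8 in the Kit mutants, with no overlap (log2 fold change -2.36, SE 0.52, adjusted p = 0.0107). That call was lost without double mutant ovary 1 (adjusted p = 0.0546), without double mutant ovary 2 (adjusted p = 0.0576) and without Kit mutant ovary 2 (adjusted p = 0.0573), and also with 0.001 in place of 0.01 added to levels (adjusted p = 0.168) or with newborn arrays alone (adjusted p = 0.0971). The second probe set was dim, at 2.21e-05, 0.000228 and 1.07e-05 in the double mutants, against 0.354, 0.595 and 0.344 in the Kit mutants (log2 fold change -5.40, SE 0.28, adjusted p = 2.04e-16 over all probe sets). Signal of the second probe set was thus close to nothing in every double mutant, while the first kept some; where either lies relative to the deleted part of the gene was not analysed here. Foxl2os, the transcript from the opposite strand beside Foxl2, was at 6.67, 7.94 and 8.39 in double mutants and at 6.74, 5.13 and 7.5 in Kit mutants, overlapping groups with an adjusted p of 0.929.

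Across the array, 266 genes were called, 67 of which rose (0.368% of those tested) and 199 of which fell (1.09%) with Foxl2 loss. The sizes of called changes ran between 0.33 and 4.43 on the log2 scale, with a median of 1.15 for rises and -1.14 for falls, while the median over all genes was -0.03. In 247 of the 266 called genes the 3 double mutants did not overlap the 3 Kit mutants, as was true of 11.0% of all genes. The count was 33 when the spread was estimated from these 6 arrays alone, 158 from the arrays of newborns alone, 170 with arrays scaled to their median, and 172 without double mutant ovary 1.

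**Figure D1:**
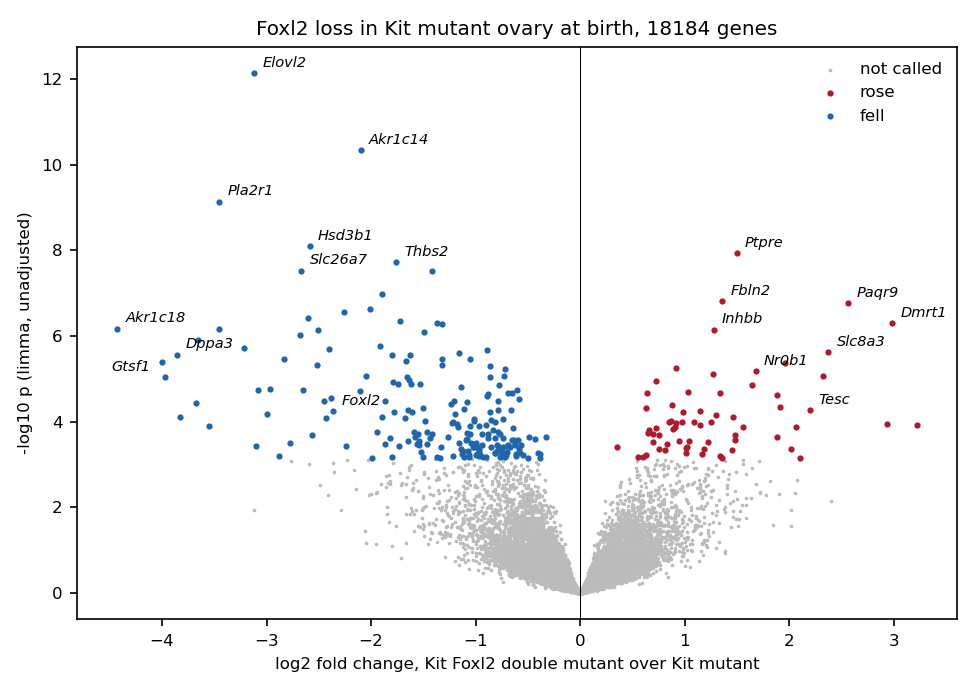
Each point is a gene, with its log2 fold change (double mutant over Kit mutant) on the x axis and -log10 of its unadjusted limma p on the y axis. The 199 genes that fell are blue, the 67 that rose are red, and Elovl2 and Akr1c14 stand highest among the falls.

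The smallest adjusted p among all genes was that of Elovl2. Elovl2, an elongase of long polyunsaturated fatty acids, was at 0.0974, 0.0621 and 0.043 in double mutants, against 0.59, 0.782 and 0.554 in Kit mutants (log2 fold change -3.12, SE 0.29, adjusted p = 1.3e-08). Pla2r1, a receptor for secreted phospholipase A2, was at 0.11, 0.108 and 0.0185 in double mutants and 1.01, 0.661 and 0.762 in Kit mutants (log2 fold change -3.45, adjusted p = 4.4e-06); a second, very dim probe set of Pla2r1 gave 0.89 with an adjusted p of 0.58, and the mean of both probe sets was not called (log2 fold change -1.28, adjusted p = 0.0522). Both genes were separated clearly between the groups, and both calls held when any 1 of the 6 ovaries was left out.

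Among 12 measured genes of steroid inactivation, 3 fell and 1 rose (list median -0.52, all genes -0.03), and the 3 that fell were aldo-keto reductases of the Akr1c group on chromosome 13. The rise was Hsd17b11, a hydroxysteroid and lipid-droplet dehydrogenase, at 11.6, 14.2 and 13.9 in double mutants and 8.07, 7.56 and 7.75 in Kit mutants (adjusted p = 0.037), a call kept in 1 of the 6 fits that left an ovary out. Akr1c18, which inactivates progesterone, was at 0.00456, 0.078 and 0.168 in double mutants and at 1.35, 1.53 and 1.07 in Kit mutants (log2 fold change -4.43, SE 0.74, adjusted p = 0.000583), the deepest fall among all called genes. With 0.001 in place of 0.01 added to levels, the Akr1c18 fold was -4.96 and the call was lost (adjusted p = 0.0791), as was that of Akr1c19 (adjusted p = 0.059). Akr1c14, a 3-alpha-hydroxysteroid dehydrogenase, was at 1.77, 1.37 and 1.51 in double mutants and at 4.81, 9.85 and 6.14 in Kit mutants (log2 fold change -2.10, SE 0.23, adjusted p = 4.17e-07). Akr1c19 averaged 0.162 ± 0.049 in double mutants and 0.614 ± 0.054 in Kit mutants (SD, n = 3 each; adjusted p = 0.0137), a call lost without double mutant ovary 1 (adjusted p = 0.0819). These genes are close relatives whose probe sets may share signal, so their falls are not fully separate measurements. Hsd3b1, which makes progesterone from pregnenolone, was at 0.294, 0.381 and 0.389 in double mutants and at 1.85, 2.34 and 2.33 in Kit mutants (log2 fold change -2.59, SE 0.35, adjusted p = 3.65e-05). It was the sole call among the 10 measured genes of androgen synthesis and Leydig cells; Star, the carrier of cholesterol into mitochondria, was at 1.2, 1.02 and 0.985 in double mutants and at 1.37, 1.48 and 1.07 in Kit mutants (adjusted p = 0.871).

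Since FOXL2 is a forkhead protein and these steroid genes fell together, their RefSeq promoter windows (mouse build GRCm38.p6, 250 bases before to 50 after the annotated start, 5′ to 3′ on the gene's strand) are shown with each match to the forkhead core TGTTTA, on either strand, in capitals. The windows are chr13:4150597-4150896 (minus strand) for Akr1c18, chr13:4059341-4059640 (plus) for Akr1c14, chr13:4233490-4233789 (plus) for Akr1c19 and chr3:98859745-98860044 (minus) for Hsd3b1.
Akr1c18: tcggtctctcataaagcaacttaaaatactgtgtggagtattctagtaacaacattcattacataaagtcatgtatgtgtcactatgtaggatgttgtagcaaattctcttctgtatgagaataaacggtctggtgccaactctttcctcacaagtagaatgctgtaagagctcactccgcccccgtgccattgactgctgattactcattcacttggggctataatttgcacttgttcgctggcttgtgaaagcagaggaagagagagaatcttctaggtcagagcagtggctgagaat
Akr1c14: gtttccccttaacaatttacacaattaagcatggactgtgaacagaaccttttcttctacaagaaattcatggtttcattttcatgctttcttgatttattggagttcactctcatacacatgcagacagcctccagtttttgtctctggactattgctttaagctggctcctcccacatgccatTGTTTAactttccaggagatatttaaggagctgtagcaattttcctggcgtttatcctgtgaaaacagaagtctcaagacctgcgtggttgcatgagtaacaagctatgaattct
Akr1c19: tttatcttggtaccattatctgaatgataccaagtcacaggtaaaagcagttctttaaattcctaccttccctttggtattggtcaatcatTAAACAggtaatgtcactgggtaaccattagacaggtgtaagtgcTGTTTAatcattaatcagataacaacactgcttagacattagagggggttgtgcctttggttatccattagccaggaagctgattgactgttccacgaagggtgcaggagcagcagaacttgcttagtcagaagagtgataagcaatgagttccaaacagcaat
Hsd3b1: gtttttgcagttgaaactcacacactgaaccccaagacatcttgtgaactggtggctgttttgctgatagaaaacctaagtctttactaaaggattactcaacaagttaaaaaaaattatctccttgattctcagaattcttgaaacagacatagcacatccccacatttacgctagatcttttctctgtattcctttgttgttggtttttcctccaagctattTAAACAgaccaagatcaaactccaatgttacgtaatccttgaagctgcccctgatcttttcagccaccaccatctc
The core was present at position -65 from the start in Akr1c14, at -159 and -114 in Akr1c19 and at -26 in Hsd3b1, counting to the first base of the match, and these letters were not in the Akr1c18 window. A match is a description of the sequence and no measure of binding. The core was found for 11.9% of the 14444 tested genes with a window, for 8 of 49 genes that rose (16.3%) and for 15 of 148 that fell (10.1%).

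**Figure D2:**
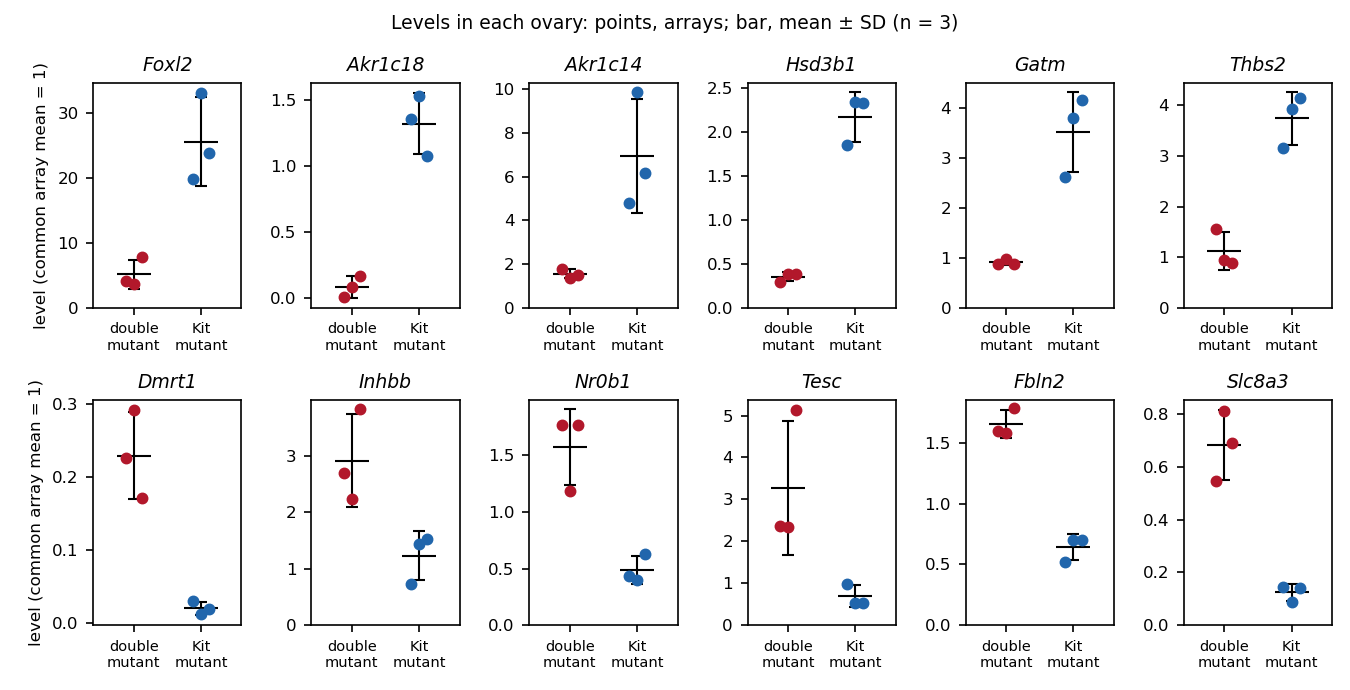
Levels (y axis, common array mean = 1, linear scale including 0) of 12 genes in each double mutant and Kit mutant ovary, with bars for mean ± SD (n = 3). The upper row holds 6 genes that fell and the lower row 6 that rose, all chosen from called genes. Their lack of overlap between the groups was in part fixed by that choice, and also held for 11.0% of all genes.

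Of 28 measured genes of the supporting cells of the testis, 3 rose, 2 fell and 23 were not called, with a list median of 0.20. Dmrt1, a transcription factor that maintains Sertoli cell identity, was at 0.226, 0.291 and 0.171 in double mutants and at 0.0299, 0.0123 and 0.0191 in Kit mutants (log2 fold change 2.98, SE 0.49, adjusted p = 0.000521). The level in double mutants was still low beside the 4.75 averaged by newborn testes. Inhbb, the beta-B subunit of inhibin and activin, was at 2.69, 2.23 and 3.83 in double mutants and 0.731, 1.43 and 1.52 in Kit mutants (log2 fold change 1.28, SE 0.21, adjusted p = 0.000583). Tesc, encoding the calcium-binding protein tescalcin, was at 2.36, 2.34 and 5.13 in double mutants and 0.985, 0.532 and 0.533 in Kit mutants (log2 fold change 2.20, SE 0.48, adjusted p = 0.0106), a call lost without double mutant ovary 3 (adjusted p = 0.068) or Kit mutant ovary 2 (adjusted p = 0.0519). Aard fell, with 1.83, 1.39 and 1.66 in double mutants, against 3.76, 4.43 and 4.47 in Kit mutants (log2 fold change -1.37, adjusted p = 0.000521). Mro fell as well (adjusted p = 0.047), but its call was lost whichever ovary was left out, at adjusted p values of 0.0569 to 0.278.

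Sox9, the central Sertoli cell factor, was higher in each double mutant (1.94, 1.52 and 1.46) than in any Kit mutant (0.712, 0.674 and 1.21), yet missed the threshold (log2 fold change 0.96, adjusted p = 0.235). Dhh, a hedgehog ligand of Sertoli cells, was at 0.32, 0.284 and 0.608 in double mutants and 0.115, 0.167 and 0.186 in Kit mutants (log2 fold change 1.26, adjusted p = 0.0734; 0.0446 when only newborn arrays set the spread). Amh, the Sertoli hormone that removes the Müllerian duct, was at 1.02, 0.693 and 0.718 in double mutants and 0.737, 0.648 and 0.592 in Kit mutants, overlapping groups (adjusted p = 0.671). Of these defining testis genes, Dmrt1 was called and Sox9, Dhh and Amh were not.

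Of 24 genes of the fetal ovarian soma, 1 rose and 2 fell, Foxl2 among them. The 24 levels summed to 90.5, 98.2 and 109 in double mutants and to 120, 121 and 119 in Kit mutants, without overlap. Foxl2 itself made up 3.61 to 7.75 of these sums in double mutants and 19.8 to 33.1 in Kit mutants, and sums without it were not taken. The rise was Nr0b1, which encodes the nuclear receptor DAX1, at 1.77, 1.19 and 1.77 in double mutants and 0.438, 0.396 and 0.625 in Kit mutants (log2 fold change 1.68, SE 0.32, adjusted p = 0.00264). The second fall was Kitl, the ligand of Kit itself, at 6.33, 3.98 and 2.57 in double mutants and 6.21, 9.4 and 8.51 in Kit mutants, where double mutant ovary 1 lay inside the Kit mutant range (log2 fold change -0.98, SE 0.25, adjusted p = 0.0355). The Kitl call was lost without any of 4 ovaries (adjusted p of 0.088 without double mutant ovary 2, 0.221 without double mutant ovary 3, 0.142 without Kit mutant ovary 2 and 0.109 without Kit mutant ovary 3), although its 3 further probe sets fell too, by -1.05, -0.92 and -1.04 on the log2 scale (adjusted p = 0.0021, 0.04 and 0.034 over all probe sets). Wnt4, which drives ovarian fate, was at 2.47, 4.95 and 3.81 in double mutants and 2.32, 2.09 and 1.88 in Kit mutants (adjusted p = 0.193). Its partner Rspo1 overlapped between the groups (adjusted p = 0.985), as did the supporting-cell factors Runx1 (adjusted p = 0.985) and Irx3 (adjusted p = 0.972).

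The granulosa list had 2 rises and 3 falls among 20 measured genes, with a median of -0.36 that was -0.09 without double mutant ovary 3, -0.21 without double mutant ovary 2 and -0.22 without Kit mutant ovary 1, and shares Inhbb, Kitl and Foxl2 with the lists above. Its 20 levels, Foxl2 included, summed to 53.1, 49.9 and 51.8 in double mutants and to 74.8, 89.4 and 75.3 in Kit mutants, without overlap. Sums without Foxl2 were not taken. Gatm, an enzyme of creatine synthesis, was at 0.883, 0.966 and 0.877 in double mutants and 2.62, 3.79 and 4.15 in Kit mutants (log2 fold change -1.92, SE 0.34, adjusted p = 0.00119), and the call held without any 1 ovary. Greb1, an estrogen-induced gene, averaged 2.05 ± 0.33 in double mutants and 0.876 ± 0.15 in Kit mutants (SD, n = 3 each; adjusted p = 0.0307), but held in only 2 of the 6 fits that left an ovary out, with an adjusted p of up to 0.135. Esr2, the estrogen receptor of granulosa cells, was low in both groups, at 0.11, 0.0889 and 0.105 in double mutants and 0.209, 0.113 and 0.106 in Kit mutants (adjusted p = 0.89). Nr5a2, a nuclear receptor of granulosa cells, was at 0.17, 0.139 and 0.133 in double mutants and 0.197, 0.527 and 0.198 in Kit mutants (adjusted p = 0.455).

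Among 18 measured thrombospondin and Adamts genes 3 fell and none rose, with a median of 0.01. Thbs1 and Adamts16 are among the study's top decreases drawn partly from these same arrays, so their falls are not independent evidence. Thbs2 is among the study's top decreases in ovaries lacking Foxl2 alone. Thbs2, the anti-angiogenic matrix protein thrombospondin 2, was at 1.56, 0.94 and 0.877 in double mutants and 3.15, 3.93 and 4.15 in Kit mutants (log2 fold change -1.76, SE 0.25, adjusted p = 5.57e-05). Its relative Thbs1 was at 1.01, 0.562 and 0.413 in double mutants and 1.23, 2.85 and 1.64 in Kit mutants (log2 fold change -1.52, adjusted p = 0.0405), and lost its call without 4 of the 6 ovaries in turn (adjusted p of 0.119 and 0.161 without double mutant ovaries 2 and 3, and 0.211 and 0.0752 without Kit mutant ovaries 2 and 3). Adamts16, a secreted metalloprotease, was at 0.832, 1.18 and 0.845 in double mutants and 2.48, 1.92 and 1.56 in Kit mutants (log2 fold change -1.05, adjusted p = 0.0017). A second, dim Adamts16 probe set gave 0.29 (adjusted p = 0.929 over all probe sets), and the mean of both was not called (log2 fold change -0.38, adjusted p = 0.64). With the spread estimated from these 6 arrays alone Adamts16 was not called either (adjusted p = 0.211). In the matrix fibre list, 1 of 31 genes rose, 2 fell and 26 had a positive log2 fold change, with a median of 0.21. Fibulin 2 (Fbln2) was at 1.6, 1.58 and 1.79 in double mutants and 0.519, 0.705 and 0.705 in Kit mutants (log2 fold change 1.36, SE 0.21, adjusted p = 0.000272). Fibrillin 2 (Fbn2) averaged 3.38 ± 0.45 in double mutants and 5.61 ± 0.29 in Kit mutants (SD, n = 3 each; adjusted p = 0.0147), and lost its call without double mutant ovary 2 (adjusted p = 0.0691) or Kit mutant ovary 2 (adjusted p = 0.059).

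Of 40 guidance and synaptic adhesion genes, 4 fell and none rose, with a median of -0.08. All 4 are among the study's top decreases, drawn partly from these same arrays, so their falls are not independent evidence. Ntn4, a laminin-related netrin, was at 0.216, 0.503 and 0.0364 in double mutants and 0.718, 1.46 and 0.909 in Kit mutants (log2 fold change -2.50, SE 0.42, adjusted p = 0.000583). Plxnc1, a semaphorin receptor, was at 1.25, 1.01 and 0.896 in double mutants and 1.61, 3.09 and 2.56 in Kit mutants (log2 fold change -1.16, adjusted p = 0.00143), and 3 of its 5 further probe sets were also called, while a dim one gave 0.21. The other two were Clstn2 (log2 fold change -1.64, adjusted p = 0.00347; 0.0517 with the mean of its probe sets) and Lrrc4 (-1.50, adjusted p = 0.00983), the second lost without double mutant ovary 3 (adjusted p = 0.0915) or Kit mutant ovary 2 (adjusted p = 0.0911). Of the named genes outside any list, the rises with firm calls were Paqr9, a progestin and adipoQ receptor family member (0.403, 0.306 and 0.466 in double mutants, 0.0872, 0.0335 and 0.0604 in Kit mutants, adjusted p = 0.000277), Jakmip1 (adjusted p = 0.00194) and the phosphatase Ptpre, at 2.36, 2.09 and 2.74 in double mutants and 0.902, 0.762 and 0.851 in Kit mutants (log2 fold change 1.50, SE 0.20, adjusted p = 4.15e-05). Slc8a3, a sodium-calcium exchanger of the plasma membrane, was at 0.547, 0.813 and 0.693 in double mutants and 0.146, 0.0884 and 0.14 in Kit mutants (log2 fold change 2.38, SE 0.43, adjusted p = 0.00143).

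A pair of lists was chosen by the study from these same arrays, so their direction is not independent evidence. Genes named elsewhere are also on them, including Dppa3, Ntn4 and Plxnc1 (decreases) and Dmrt1, Tesc, Fbln2 and Etv5 (increases). Of 16 measured genes on the list of decreases, 11 fell and none rose (median -1.51), and of 16 on the list of increases, 5 rose and none fell (median 1.08). Slc26a7, an anion exchanger, was the firmest of the falls, at 0.242, 0.191 and 0.107 in double mutants and 0.712, 2.33 and 0.89 in Kit mutants (log2 fold change -2.67, SE 0.38, adjusted p = 6.92e-05). Col8a1, a short-chain collagen, was at 0.116, 0.172 and 0.0625 in double mutants and 0.263, 1.93 and 0.419 in Kit mutants, with Kit mutant ovary 2 far above its group, and was not called (adjusted p = 0.0571; 0.0276 without Kit mutant ovary 1, and 0.0201 to 0.0482 under 4 other settings).

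**Figure D3:**
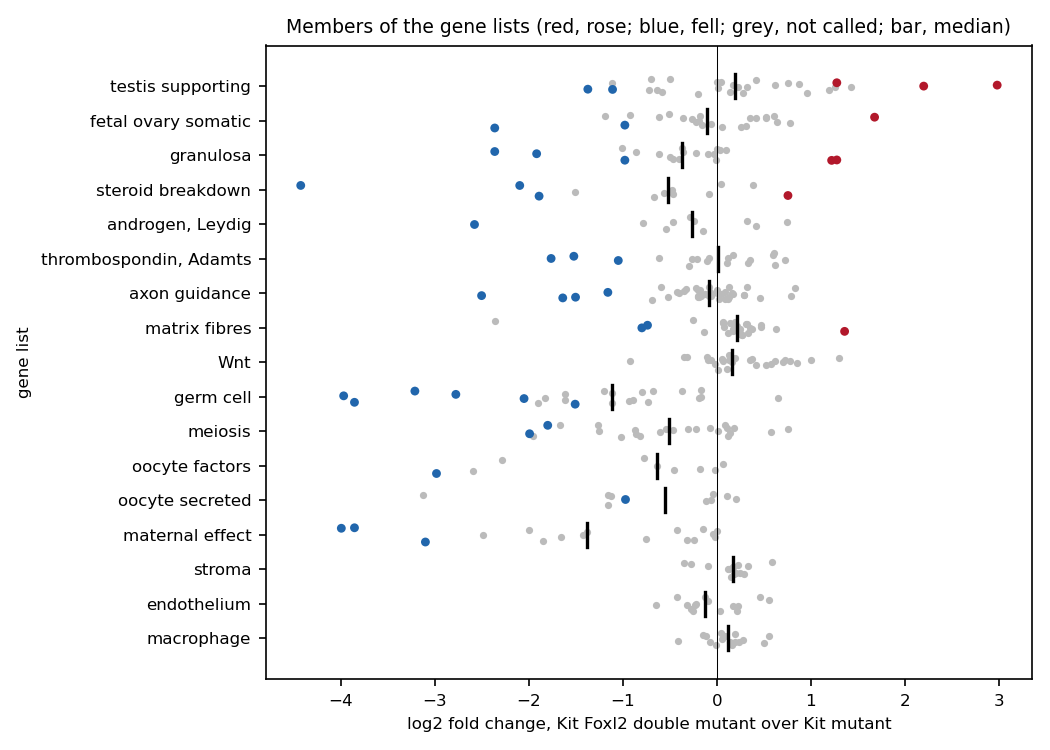
Log2 fold change (x axis, double mutant over Kit mutant) of each measured member of 17 gene lists (y axis), with the list median as a black bar; red members rose, blue members fell and grey members were not called. The medians of the maternal effect list (-1.38) and the germ cell list (-1.12) lie farthest from 0 among the lists drawn, which leave out the pair chosen by the study.

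Of 23 measured germ-cell genes, 6 fell, none rose and 22 had a negative log2 fold change, with a median of -1.12 against -0.03 over all genes. Of all 18184 genes, 1.09% fell and 9870 had a negative log2 fold change. In 7 of the 23 all double mutants lay below all Kit mutants, and in 1 they lay above. The groups did not overlap for 11.0% of all genes, counting both directions. The 23 levels summed to 1.43, 2.65 and 1.27 in double mutants and to 3.15, 8.88 and 12.5 in Kit mutants; they summed to 89.0, 72.7 and 91.3 in Foxl2-/- ovaries with Kit intact and to 80.2, 122.0 and 109.0 in wild-type ovaries. All 3 double mutants thus lay below all 3 Kit mutants, but this separation rested on Dppa3: without it the other 22 genes summed to 1.36, 1.97 and 1.09 in double mutants and to 1.91, 5.04 and 5.63 in Kit mutants, where double mutant ovary 2 overlapped Kit mutant ovary 1. Both groups lay far below the ovaries with Kit. The sums also overlapped for the meiosis list (7.18 to 8.36 in double mutants, 7.86 to 9.48 in Kit mutants) and for the oocyte transcription factors (6.7 to 8.84 in double mutants, 7.81 to 9.79 in Kit mutants). A typical (median) gene of the list stood at 1.48% of its wild-type mean in double mutants and at 5.8% in Kit mutants.

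Dppa3, a maternal chromatin protein also called Stella, was at 0.0723, 0.674 and 0.184 in double mutants and 1.24, 3.84 and 6.86 in Kit mutants (log2 fold change -3.86, SE 0.70, adjusted p = 0.00149), and averaged 39.6 in wild-type ovaries. Gtsf1, a cofactor of the piRNA pathway that silences transposons, was at 0.018, 0.02 and 5.03e-05 in double mutants and 0.127, 0.317 and 0.718 in Kit mutants (log2 fold change -3.97, SE 0.77, adjusted p = 0.00314). Mael, another piRNA pathway protein, was at 0.0125, 0.138 and 4.8e-05 in double mutants and 0.11, 0.403 and 0.528 in Kit mutants, where double mutant ovary 2 overlapped the lowest Kit mutant (log2 fold change -3.21, SE 0.57, adjusted p = 0.00125). Those 3 calls and that of Tdrd5 (adjusted p = 0.00314), a further piRNA pathway gene, held without any 1 ovary. With the spread estimated from these 6 arrays alone, Gtsf1 was the only germ-cell gene called. Dppa3 (adjusted p = 0.0823), Tdrd5 (adjusted p = 0.121) and Mael (adjusted p = 0.28) then lost their calls. Tdrd9 (adjusted p = 0.0312) and Asz1 (adjusted p = 0.047) fell as well, but each kept its call in only 2 of the 6 fits that left an ovary out, with adjusted p values of up to 0.248 and 0.194. The classical germ-cell markers Ddx4, an RNA helicase, and Dazl, an RNA-binding protein, were not called: Ddx4 was at 0.000211, 0.034 and 7.32e-06 in double mutants and 7.62e-06, 0.103 and 0.198 in Kit mutants (adjusted p = 0.111). Dazl was at 0.0452, 0.0644 and 0.0945 in double mutants and 0.0699, 0.212 and 0.281 in Kit mutants (adjusted p = 0.14).

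The Kit mutant ovaries differed among themselves in this signal. Without Kit mutant ovary 1, the lowest of its group, 11 germ-cell genes fell, Ddx4 (adjusted p = 6.59e-05) and Dazl (adjusted p = 0.0158) among them, and 9 fell without double mutant ovary 2, the highest of the double mutants. The count was 4 without double mutant ovary 1, Kit mutant ovary 2 or Kit mutant ovary 3. The median of the list was -1.91 without Kit mutant ovary 1 and -0.82 without Kit mutant ovary 3. Kit transcript, made by oocytes and by some somatic cells, was at 0.505, 0.428 and 0.229 in double mutants and 0.54, 0.699 and 0.871 in Kit mutants (adjusted p = 0.426), against 2.68, 3.68 and 2.54 in wild-type ovaries.

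Oocyte genes were read in 4 further lists. Nobox, a transcription factor of primordial oocytes, was at 0.0112, 0.0462 and 0.0218 in double mutants and 0.131, 0.258 and 0.495 in Kit mutants (log2 fold change -2.99, SE 0.67, adjusted p = 0.0121), and lost its call without double mutant ovary 1 (adjusted p = 0.0792) or Kit mutant ovary 3 (adjusted p = 0.0826). It was the only call among 9 oocyte transcription factors; Figla, which switches on the zona pellucida genes, was not called (log2 fold change -2.59, adjusted p = 0.0599). Of 17 maternal effect genes, whose products serve the early embryo, 3 fell, none rose and all 17 were below 0 (median -1.38). That median was -0.66 without Kit mutant ovary 3 (15 below 0), -0.80 without double mutant ovary 3 (14 below 0) and -0.83 with 0.05 added to levels. Nlrp4f was at 1.58e-05, 0.0448 and 2.04e-05 in double mutants and 0.109, 0.381 and 0.47 in Kit mutants (log2 fold change -4.00, SE 0.74, adjusted p = 0.00183). Ooep, of the subcortical maternal complex, was at 0.000157, 0.142 and 0.142 in double mutants and 0.311, 0.275 and 1.61 in Kit mutants (log2 fold change -3.10, adjusted p = 0.0345), and lost its call without double mutant ovary 1 (adjusted p = 0.345) or Kit mutant ovary 3 (adjusted p = 0.223). The third was Dppa3.

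Of 10 genes for oocyte-secreted proteins and their somatic partners only Kitl was called. Zp3, a zona pellucida protein, was at 0.0205, 0.0266 and 0.016 in double mutants and 0.0204, 0.0223 and 19.5 in Kit mutants, so that a single ovary, Kit mutant 3, carried the whole signal (adjusted p = 0.233). Gdf9, a growth factor of growing oocytes, was at 0.323, 0.31 and 0.29 in double mutants and 0.393, 0.279 and 0.342 in Kit mutants (adjusted p = 0.972), against 2.64, 6.8 and 5.12 in wild-type ovaries. Of 24 meiosis genes, 2 fell and 8 had a positive log2 fold change (median -0.50): Tex12 and Meioc, at 0.0083 and 0.0039 on average in double mutants and 0.0494 and 0.0436 in Kit mutants, with adjusted p values of 0.047 and 0.0487 that were lost when any 1 of 4 (Tex12) or 5 (Meioc) ovaries was left out, reaching 0.18 and 0.182.

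**Figure D4:**
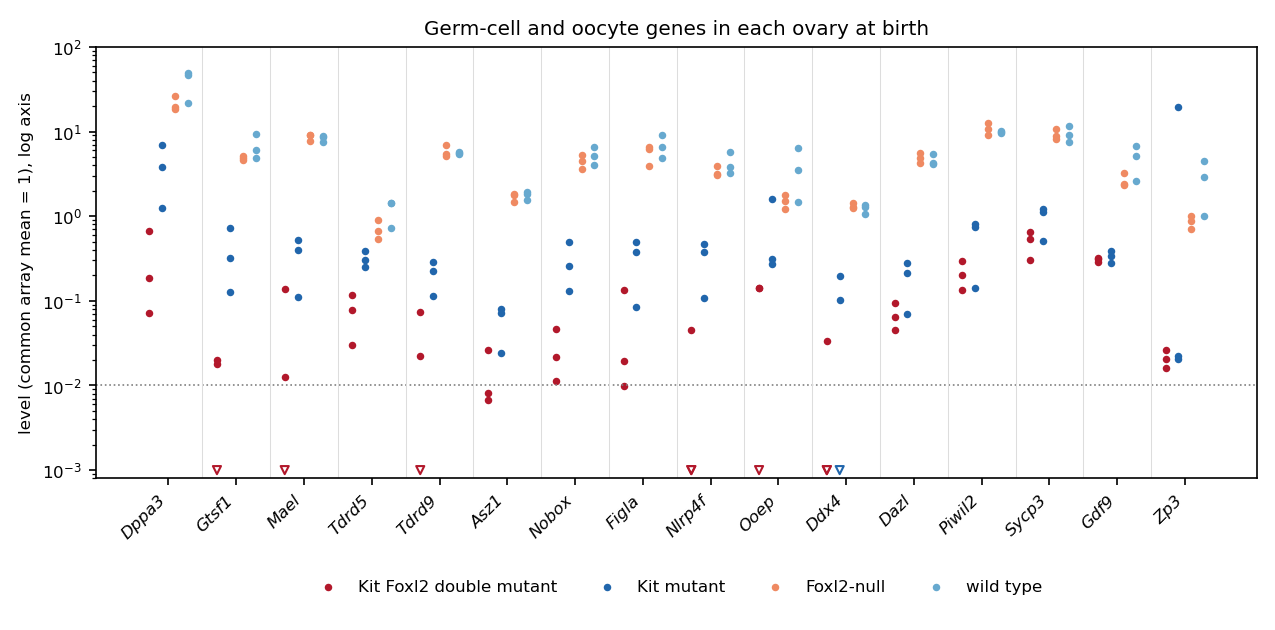
Levels (y axis, log scale, common array mean = 1) of 16 germ-cell and oocyte genes in each ovary of 4 groups; open triangles are levels under 0.001, drawn at 0.001, and the dotted line is the 0.01 added before taking logs. Double mutants lie below Kit mutants for Dppa3, Gtsf1 and Nobox, genes picked by a rule that required no overlap. Zp3 reaches 19.5 in 1 Kit mutant ovary only.

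Markers of other cell types were checked beside these changes. No member was called in 14 of the 40 gene lists, including stroma (15 genes measured), endothelium (15), macrophages (16), red cells (14) and striated muscle (12). Summed levels of the lists overlapped for stroma (98.7 to 120.0 in double mutants, 89.2 to 106.0 in Kit mutants), endothelium (15.2 to 19.4 in double mutants, 16.7 to 19.8 in Kit mutants) and macrophages (7.14 to 9.26 in double mutants, 6.39 to 7.59 in Kit mutants). The adrenal cortex enzyme Cyp21a1 and the muscle actin Acta1 were at or below 0.123 in all 6 ovaries. Smooth muscle had no call among 10 genes, but 8 were below 0 and its sums did not overlap (19.2 to 22.8 in double mutants, 23.9 to 26.5 in Kit mutants). For surface epithelium all 13 genes of its list had negative log2 fold changes (median -0.35, 1 call, Aldh1a1), and the sums, 22.3 to 27.8 in double mutants and 27.7 to 35.9 in Kit mutants, overlapped slightly. Over all 18184 genes 9870 had a negative log2 fold change, and for single genes the groups did not overlap in 11.0%. The part of smooth muscle and surface epithelium in the falls was not tested.

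The same loss with Kit intact changed 185 genes, 58 up (0.319% of those tested) and 127 down (0.698%). Its arrays were not shared with the Kit comparison, but the spread of each gene was estimated from all arrays of the study together. Calls in the Kit, Kit-intact and Wnt4-null comparisons, and the overlaps between them, were thus not fully separate. With the arrays of each comparison alone, 33 genes were called in the Kit background, 63 with Kit intact and 218 in the Wnt4-null background. Of the 67 genes that rose in the Kit background 8 were also called up with Kit intact (11.9% of the 67, 13.8% of the 58), and of the 199 that fell 27 were called down there (13.6% of the 199, 21.3% of the 127); no gene was called in opposite directions. The shared rises were Efhd1, Fbln2, Hsd17b11, Hunk, Litaf, Nr0b1, Ptpre and Slc8a3, and the shared falls included Elovl2, Akr1c14, Hsd3b1, Slc26a7, Thbs1, Thbs2, Smad3, Ntn4, Plxnc1 and Nupr1. For example, Elovl2 changed by -2.09 on the log2 scale with Kit intact (adjusted p = 2.03e-05), Nr0b1 by 1.94 (adjusted p = 0.000292) and Slc8a3 by 3.10 (adjusted p = 1.82e-05). The reference with Kit intact was wild type for Foxl2 and that of the Kit comparison was Foxl2+/-, so the dose of Foxl2 in the reference and the Kit genotype cannot be told apart between these comparisons.

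In the Wnt4-null background 93 genes rose (0.511%) and 108 fell (0.594%). There 3 of the 67 rises (4.48%; 3.23% of the 93) and 16 of the 199 falls (8.04%; 14.8% of the 108) recurred, and 6 genes were called in the opposite direction. Dmrt1 and Tesc rose there by 2.67 and 2.13 on the log2 scale (adjusted p = 0.00177 and 0.0161), as in the Kit background. The study listed both as shared by the Kit and Wnt4 compound mutants, from these same arrays, so their recurrence is not independent evidence. With Kit intact both were above 0 without a call, at 1.03 and 0.65 (adjusted p = 0.568 and 0.848). The limma test did not call a difference between their effects with and without functional Kit (adjusted p = 0.481 and 0.709). The log2 differences were 1.95 (SE 0.69) and 1.55 (SE 0.68), with unadjusted limma p of 0.00776 and 0.029, so equal effects were not shown. Gstm6 and Gstm7, glutathione transferases that fell with Foxl2 loss in the Kit background, rose in the Wnt4-null background by 1.98 and 0.87 (adjusted p = 0.0225 and 0.0025). Shared by the 3 backgrounds were 10 falls, Chn2, Clstn2, Ephx2, Foxl2, Lama1, Metrnl, Ntn4, Nupr1, Plxnc1 and Thbs1, and no rise. Several of them, including Clstn2, Ephx2, Ntn4, Nupr1, Plxnc1 and Thbs1, are on the study's list of decreases shared by the compound mutants. For these the agreement was part of the choice.

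A direct test of whether the Foxl2 effect differed with and without functional Kit called 4 genes (0.0220% of those tested) and left 1136 at an unadjusted p under 0.05. None of the 4 was called in the Kit background. Adamdec1, a metalloprotease, was at 0.249, 0.129 and 0.102 in double mutants and 0.156, 0.102 and 0.0648 in Kit mutants, but at 0.226, 0.161 and 0.17 in Foxl2-/- and 2.27, 4.05 and 1.37 in wild-type ovaries, so that only the wild-type ovaries stood high (log2 difference of effects 4.11, SE 0.56, adjusted p = 0.000216). Fam160a1 was at 0.472, 0.382 and 0.255 in double mutants and 0.308, 0.522 and 0.345 in Kit mutants, and at 1.09, 0.953 and 0.928 in Foxl2-/- and 4.75, 4.49 and 5.42 in wild-type ovaries (difference 2.21, SE 0.35, adjusted p = 0.00215). The germ-cell list had no call with Kit intact (median log2 fold change 0.04) and none in the Wnt4-null background (median -0.82), while with Kit intact the median was -0.93 for maternal effect genes and -0.75 for the oocyte-secreted list. No germ-cell gene passed the test of the difference; Mael came to an adjusted p of 0.181 and Dppa3 to 0.403. Nor did any steroid gene: Akr1c18 changed by -2.67 with Kit intact (adjusted p = 0.0716), with an adjusted p of 0.875 for the difference.

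**Figure D5:**
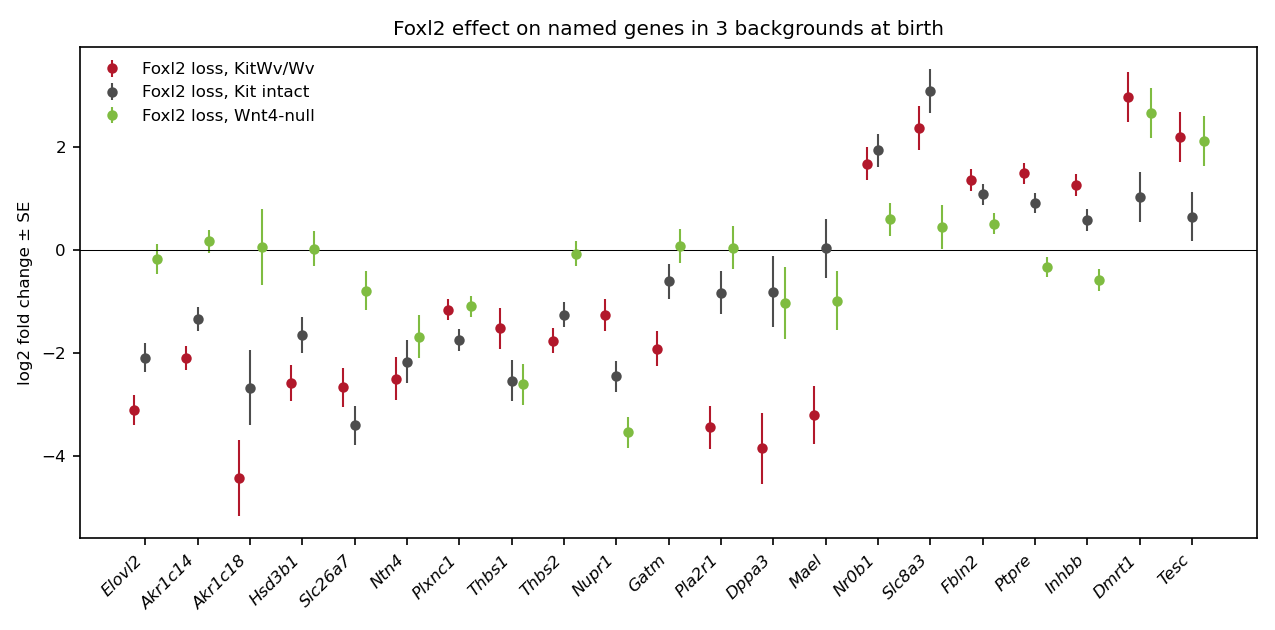
Log2 fold change ± SE (y axis) of 21 named genes with Foxl2 loss in the KitWv/Wv background (red), with Kit intact (grey) and without Wnt4 (green). Elovl2, Akr1c14 and Hsd3b1 fall in the first pair of backgrounds and lie near 0 without Wnt4. Dmrt1 and Tesc lie above 0 in all backgrounds, with calls in the Kit and Wnt4 backgrounds only. The study listed both as shared by the Kit and Wnt4 compound mutants, from these same arrays.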

How the data were processed

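Gene expression was measured on Affymetrix MOE430 version 2 arrays. Per the labels and the methods, the authors extracted RNA from whole gonads, amplified it, summarised probes with PLIER in R and scaled each array to a global mean; GCOS 1.3 is named in the submitters' processing notes without a role. The deposited values are linear intensities, and no depth applies: the number of arrays limits the precision. Each intensity was divided by the common array mean, 15970000, and analysed as log2(level + 0.01). Of 45071 probe sets, 64 controls were left out; 34927 carried 1 gene symbol, 930 several and 9150 none, and 18184 genes were each read by the brightest probe set. With limma 3.58.1 in R 4.3.3, 15 group means were fitted to all 43 arrays (28 residual degrees of freedom, variance trend), and p-values were adjusted by Benjamini and Hochberg over all genes. Per the methods each array was a separate mouse. In simulated data for the Kit comparison with 18184 genes, 44 of 100 genes changed by 1 and 91 of 100 changed by 2 on the log2 scale were called, with 3 false calls among 138. The simulated noise was independent and had the same spread in every group, so these counts do not measure false calls in the ovaries.

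The genes selected for naming were Foxl2, the 12 called genes with the highest and the 12 with the lowest log2 fold change (restricted to those without overlap between ovaries and with 1 group mean over the median probe set), at most 4 called genes from each of 40 lists (598 of 652 genes measured), taken by adjusted p, members of the supporting-cell, estrogen, oocyte and germ-cell lists needed by a sentence, and the genes called for the difference of effects. Not all selected genes are described above. Left out were the rises 9330159F19Rik (the largest, log2 fold change 3.23), Cds1, Cd83, Dusp26, Tmem52 and Ecrg4. The falls Elobl, Zg16, Trim66 (-3.45, a call that held without any 1 ovary) and Pla2g4c were left out too, as were Ret, Egr1 and Hsd17b7. The members and lists were chosen with earlier results of these data known. Of 64 genes so selected in the Kit comparison, 36 had several probe sets, which all ran in the same direction for 31 of them.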

Additional observations from a re-analysis of the deposited data

Results flagged for a closer look

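The Foxl2 effect differed with and without functional Kit for 4 genes, by limma's test of the difference (effect in the Kit background minus effect with Kit intact, log2 scale). Adamdec1 differed by 4.11 (adjusted p = 0.000216) and was called under all 22 alternative settings. Fam160a1 differed by 2.21 (adjusted p = 0.00215) and was called in 20 of 22, being lost with the 12 arrays of the comparison alone (adjusted p = 0.0877) and with a replicate block (adjusted p = 0.337). Mybpc1, a myosin-binding protein of slow muscle, differed by 2.06 (adjusted p = 0.00546) and was called in 19 of 22, being lost also with the mean of its probe sets (adjusted p = 0.521). Dhrs2, a short-chain dehydrogenase, differed by 3.74 (adjusted p = 0.0123) and was called in 13 of 21; among the lost settings were the fits without wild-type ovary 2 (adjusted p = 0.145) and without wild-type ovary 3 (adjusted p = 0.0713). In Dhrs2 the double mutants were at 0.188, 0.143 and 0.0992 and the Kit mutants at 0.121, 0.107 and 0.162, while Foxl2-/- ovaries were at 0.0368, 0.0707 and 0.0764 and wild-type ovaries at 0.176, 1.7 and 1.95.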

How the results depend on the processing

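The count of 266 in the Kit background stayed within 1.5 times under both other pseudocounts, quantile normalization (334), bright probe sets only, no variance trend (207) and the mean of probe sets (240). It was 170 with median scaling, 158 with newborn arrays alone and 33 with the 6 arrays alone; without each ovary it ran from 172 to 285, and only leaving out double mutant ovary 1 (172) moved it by over 1.5 times. With Kit intact the count of 185 became 63 with its own arrays alone and 105 to 240 without each ovary (120 and 117 without Foxl2-/- ovaries 1 and 2, 105 without wild-type ovary 2 or 3). In the Wnt4-null background the count of 201 became 127 with newborn arrays alone and 83 to 186 without each ovary (88 without Wnt4 Foxl2 double null ovary 1, 83 and 93 without Wnt4-null ovaries 2 and 3); there median scaling moved the median of all genes from 0.0307 to -0.0725 and the calls from 93 up and 108 down to 58 up and 120 down. The 4 differences of effects became 9 with a pseudocount of 0.1%, 1 with the arrays of the comparison alone, 7 with newborn arrays alone, 7 without a variance trend and 3 to 26 without each ovary (26 without wild-type ovary 1, 14 without double mutant ovary 3, 10 without Kit mutant ovary 1, 9 without Foxl2-/- ovary 3, 7 without Foxl2-/- ovary 1 or wild-type ovary 3).

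In the Kit comparison replicate numbers did not pair the ovaries: deviations of same-numbered ovaries correlated at -0.11 to 0.068, and 1 of 3 correlated best with its own number. With Kit intact the correlations were -0.155 to 0.08, again with 1 of 3. In the Wnt4-null background they were 0.016 to 0.144, with 2 of 3. With the number as a block, limma called 0 genes in the Kit background (1057 at an unadjusted p under 0.05), 8 with Kit intact, 425 in the Wnt4-null background and 1 difference of effects.

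Of the 64 selected genes none turned direction under any setting; 28 stayed called without each ovary in turn, 15 in 4 or 5 of the 6 fits and 21 in 3 or fewer. With the 6 arrays alone, 24 of 64 stayed called. Counts and medians of lists without each ovary, and the germ-cell sum without Dppa3, were chosen after seeing the data.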

Other observations

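Further groups held a few calls each. Of 18 glutathione transferases 2 fell with Foxl2 loss in the Kit background: Gstm7, at 1.12, 1.27 and 1.39 in double mutants and 2.85, 2 and 2.12 in Kit mutants (log2 fold change -0.86, adjusted p = 0.00314), and Gstm6, at 0.909, 0.896 and 0.991 in double mutants and 4.59, 3.44 and 2.97 in Kit mutants (-1.94, adjusted p = 0.0225). The Gstm7 call held without any 1 ovary, but a second probe set gave 0.09 (adjusted p = 0.98 over all probe sets) and the mean of both was not called (log2 fold change -0.39, adjusted p = 0.374), and the Gstm6 call was lost without any of 4 (adjusted p of up to 0.101); these are close relatives whose probes may share signal. Of 20 activin and inhibin genes, Inhbb rose and Smad3, a transducer of activin and TGF-beta signals, fell, with 5.23, 5.84 and 6.07 in double mutants and 8.51, 9.21 and 7.94 in Kit mutants (-0.58, adjusted p = 0.00705; 0.0505 without double mutant ovary 1). Of 23 BMP pathway genes Smad5 was the only call, at 8.01, 7.62 and 6.48 in double mutants and 3.11, 5.92 and 5.59 in Kit mutants (0.65, adjusted p = 0.0229; lost without any of 3 ovaries, with an adjusted p of 0.29 without Kit mutant ovary 1).

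Among 16 retinoid genes 2 enzymes of retinoic acid synthesis were called in opposite directions. Aldh1a3 averaged 1.16 ± 0.062 in double mutants and 0.453 ± 0.035 in Kit mutants (SD, n = 3 each; adjusted p = 0.0462), but was called in none of the 6 fits that left an ovary out. Aldh1a1 averaged 4.21 ± 1.4 in double mutants and 7.91 ± 2.2 in Kit mutants (SD, n = 3 each; adjusted p = 0.047; lost without any of 3 ovaries, up to 0.257). Etv5, an ETS factor downstream of FGF signals, averaged 2.59 ± 0.65 in double mutants and 1.10 ± 0.33 in Kit mutants (SD, n = 3 each; adjusted p = 0.0155; 0.111 without double mutant ovary 1 and 0.138 without Kit mutant ovary 1). Of 15 glycolysis genes 14 had a positive log2 fold change (median 0.36) and none was called.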
